A study of Mus musculus with 12 samples.

Results

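The genes described here belong to 9 families of enzymes and readers that act on histones and DNA: histone deacetylases (Hdac), sirtuins (Sirt), DNA methyltransferases (Dnmt), methylcytosine dioxygenases (Tet), lysine demethylases (Kdm), arginine methyltransferases (Prmt), SET domain methyltransferases (Setd), bromodomain proteins (Brd) and chromodomain helicases (Chd). They were chosen by name. Every protein-coding locus whose symbol starts with one of these stems and a digit was taken, except the X-linked or Y-linked Kdm5c, Kdm5d and Kdm6a, which gave 70 of the 40597 loci in the table, of which 21852 were protein-coding. RNA was measured in neurospheres, floating clusters of neural stem and progenitor cells. The hypothalamus of fetal C57Bl/6 mice, taken at embryonic day 14.5, was their source, and they were treated at passage 3. Female dexamethasone, female vehicle, male dexamethasone and male vehicle cultures made up the 4 groups, with 3 libraries each. Dexamethasone, a synthetic glucocorticoid, was given at 100 nM for 4 hours and the vehicle was ethanol. No genetic change is given for any group. The labels number biological replicates without saying whether they came from separate animals or litters, and p-values thus cover only the spread among these cultures. Nor do the labels say whether equal numbers pair a dexamethasone culture with a vehicle culture, and the main test does not pair them.

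Acetyl groups on histone tails loosen chromatin and are read by bromodomains, and deacetylases and sirtuins take them off. Methyl groups on histones are added by SET domain and arginine methyltransferases and removed by Kdm demethylases. Methyl groups on cytosine are written by Dnmt enzymes and oxidised by Tet enzymes, while Chd proteins use ATP to move nucleosomes, so that the Brd and Chd families read or remodel chromatin rather than modify it. In neural progenitors these proteins are known for setting which lineage genes stay silent or open, and the glucocorticoid receptor, the target of dexamethasone, works with several of them as corepressors or coactivators.

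Of the 70 members, 63 had a mean of at least 1 FPKM (fragments scaled by transcript length and library size) over the 12 libraries and were tested among 14931 loci that passed the same limit. In the test of dexamethasone against vehicle averaged over the sexes, 229 of these loci, 1.53%, passed an adjusted p of 0.05 and 0 members did, while 14 members, 22.2%, had an unadjusted p under 0.05, against 13.6% of all tested loci. The member nearest to the threshold was Hdac9, which encodes a class IIa histone deacetylase. Its level was lower in each of the 6 dexamethasone libraries than in any vehicle library, with a log2 difference of -0.71 and an adjusted p of 0.0523. No member passed this test, though Hdac9 passed under 5 of 24 alternative settings. Among these was the fit that pairs same-numbered libraries (adjusted p = 0.00392), in which 804 of all tested loci passed.

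The cultures carried the RNA of their label. All 8 neural stem markers, such as Sox2 and Nes, were above 1 FPKM on average, as were all 5 astrocyte and all 5 oligodendrocyte lineage markers and 4 of 8 neuronal markers, while 0 of 5 microglial and 0 of 4 endothelial markers were. Astrocyte markers summed to between 150.3 and 1198 FPKM in dexamethasone libraries, against 169.2 to 1524 FPKM in vehicle libraries, with overlap. Apoe, the highest of these, stood at 922, 243 and 132 FPKM in male dexamethasone libraries 1 to 3, against 609, 342 and 154 FPKM in male vehicle libraries. In females it stood at 1056, 622 and 413 FPKM with dexamethasone and at 1085, 1425 and 381 FPKM with vehicle. Its order by number was the same under both treatments in males but not in females. Of the 35 cell type markers 22 were tested, and in 2 the treatments did not overlap. In 1 all dexamethasone libraries lay below all vehicle libraries, as in 0.804% of all tested loci. In 1 they all lay above, as in 1.41% of all tested loci. Sox2, a neural stem transcription factor, lay between 81.3 and 96.8 FPKM in dexamethasone libraries, against 103.5 to 158.3 FPKM in vehicle libraries, a log2 difference of -0.42 (adjusted p = 0.0915). Cspg4, which encodes the NG2 proteoglycan of oligodendrocyte precursors, lay between 15.7 and 25.2 FPKM in dexamethasone libraries, against 10.4 to 14.4 FPKM in vehicle libraries, a log2 difference of 0.76 (adjusted p = 0.0114). Their part in the results on members, Hdac9 included, was not tested. The 5 known glucocorticoid targets Fkbp5, Tsc22d3, Klf9, Per1 and Zbtb16 rose by 1.91 to 3.05 on the log2 scale, and for Fkbp5 the lowest dexamethasone library stood at 94.9 FPKM, against 25.5 FPKM in the highest vehicle library. Loci with no gene name held 75.0% of the summed FPKM in male vehicle library 3 and 53.1% in male dexamethasone library 2, and 11.6% to 38.6% in the other libraries. All values are from whole cultures, in which fewer cells of a type and less RNA per cell cannot be told apart.

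The families differed widely in level. Of the 70 members, 55 averaged at least 5 FPKM, 41 at least 10 FPKM, 10 at least 50 FPKM and 2 at least 100 FPKM, with a median of 16.6 FPKM over all members. Those above 100 FPKM were Hdac2, a class I deacetylase of the NuRD, Sin3 and CoREST corepressor complexes, at 154.9 FPKM, and Prmt1, the main enzyme of asymmetric arginine dimethylation, at 113.0 FPKM. In the other families the highest member was Kdm1a at 95.7 FPKM, Brd2 at 89.8 FPKM, Chd4 at 82.4 FPKM, Setd8 at 73.7 FPKM, Dnmt1 at 50.8 FPKM, Sirt2 at 37.9 FPKM and Tet2 at 7.63 FPKM. The Tet family was thus the lowest of the 9 by its highest member.

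**Figure D1:**
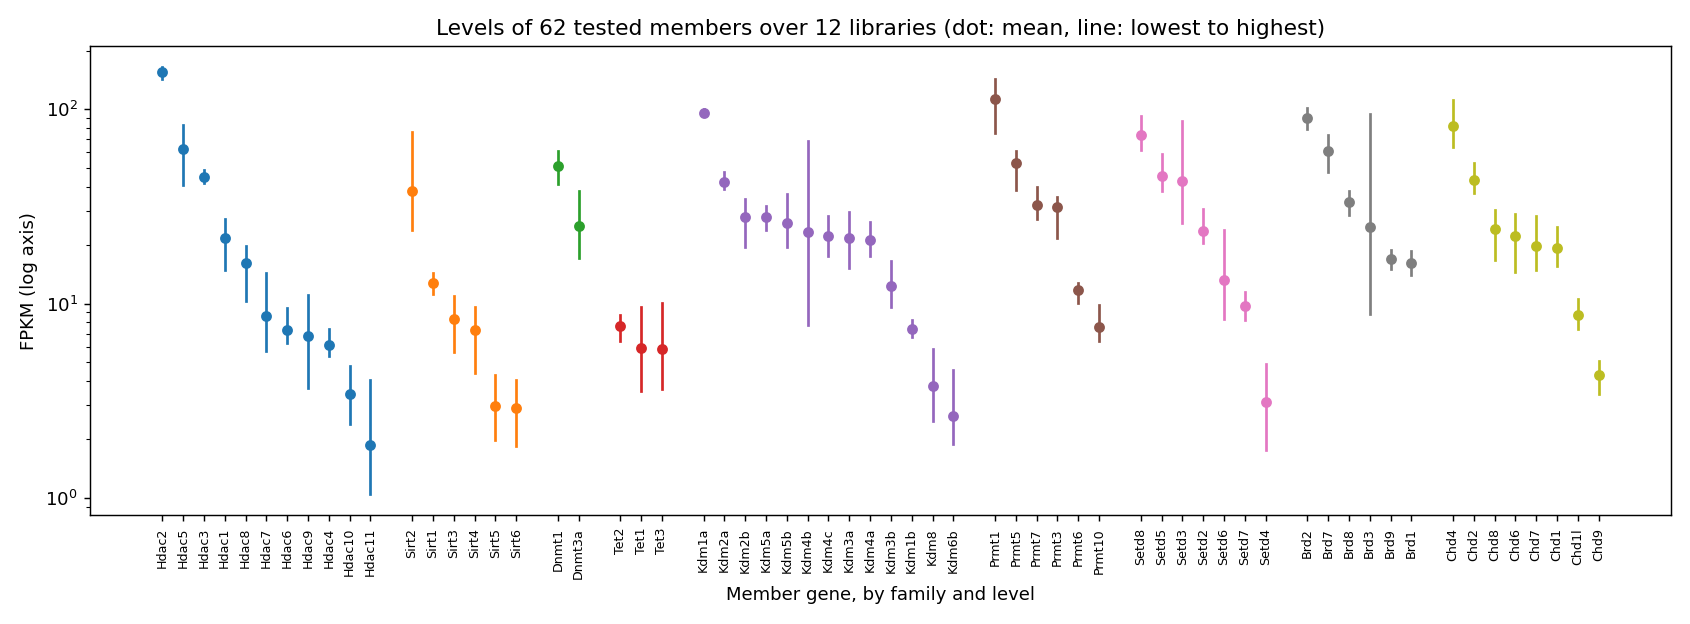
Level of 62 of the 63 tested members in FPKM on a log axis, ordered by family and by level within it; the dot is the mean over 12 libraries and the line runs from the lowest to the highest library. Hdac2, Kdm1a and Hdac3 have short lines, while Brd3 and Kdm4b have the longest, with highest to lowest ratios of 10.7 and 8.87.

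Within families, some neighbours in the order of levels were clearly apart and others were not. Hdac2 stood above Hdac5, the next deacetylase at 62.8 FPKM, in all libraries, whereas the ranges of Hdac5 and Hdac3 (44.6 FPKM) overlapped. Dnmt1, which copies methylation to the new strand after replication, stood above Dnmt3a (25.2 FPKM), a de novo methyltransferase, and Dnmt3a above Dnmt3b (0.739 FPKM), the other de novo enzyme, with no overlap at either step. The 3 Tet genes overlapped, at 7.63 FPKM for Tet2, 5.90 FPKM for Tet1 and 5.86 FPKM for Tet3. Among the demethylases Kdm1a, an amine oxidase also called LSD1, stood apart from Kdm2a (42.4 FPKM), a JmjC enzyme of histone H3, while Kdm2b, Kdm5a, Kdm5b, Kdm4b, Kdm4c, Kdm3a and Kdm4a lay between 28.1 and 21.3 FPKM, each overlapping its neighbour.

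The 7 members that fell under 1 FPKM were not tested. Setd1b, a histone H3 methyltransferase, had a mean of 0.876 FPKM, Chd3, a NuRD ATPase, 0.849 FPKM, Dnmt3b 0.739 FPKM and Chd5, a remodeller known from neurons, 0.413 FPKM. Kdm4d (0.0549 FPKM), Prmt8 (0.0113 FPKM), known as a brain arginine methyltransferase, and Dnmt3l (0.00466 FPKM), the catalytically inactive partner of the de novo enzymes in germ cells, were close to 0. Among the tested members the ones just above the limit were Hdac11 at 1.88 FPKM and Kdm6b, a JmjC enzyme that acts on the Polycomb mark, at 2.63 FPKM.

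Most members varied little between libraries. The ratio of the highest to the lowest of the 12 libraries had a median of 1.73 over the 63 tested members, was under 2 for 44 of them and reached 3 for 6 of them. Kdm1a was the steadiest by this ratio (1.08), from 92.7 to 100.2 FPKM, followed by Hdac2 (1.15) and Hdac3 (1.17), the catalytic subunit of the NCoR corepressor. The 6 members with the widest ratios were Brd3, Kdm4b, Hdac11, Setd3, Sirt2 and Hdac9.

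Brd3, a BET reader of acetylated histones, varied most. It stood at 8.82, 10.7 and 14.3 FPKM in female dexamethasone libraries, against 11.9, 94.1 and 14.2 FPKM in female vehicle libraries. In males it stood at 10.04, 11.9 and 14.5 FPKM with dexamethasone and at 13.4, 13.6 and 81.4 FPKM with vehicle. Female vehicle library 2 and male vehicle library 3 were therefore several times above the other 10 libraries, and the groups overlapped. The log2 difference was -1.07 with a 95% interval of -2.35 to 0.21 and an adjusted p of 0.444, and without these libraries, an alternative chosen after seeing the data, it was -0.19 (adjusted p = 0.704). The Brd3 locus is joined in the table with the microRNA locus mmu-mir-7578, and the part of the microRNA in its values was not tested.

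Female vehicle library 2 also held the highest value of Kdm4b, an eraser of histone H3 methylation, at 68.6 FPKM against 7.74 to 39.0 FPKM in the other libraries, and of Sirt2, a mainly cytoplasmic sirtuin that deacetylates tubulin. Sirt2 ranged from 23.9 to 43.4 FPKM in dexamethasone libraries, and from 31.7 to 76.3 FPKM in vehicle libraries. Its log2 difference was -0.23 (adjusted p = 0.603), and -0.06 without female vehicle library 2. This library held the highest of the 12 values for 17 of the 63 tested members, 27.0%, against 16.3% of all tested loci, and male vehicle library 3 did so for 10 members, 15.9%, against 11.7% of all tested loci. Over all 6 vehicle libraries, 42 members, 66.7%, had their highest value there, against 54.0% of all tested loci.

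**Figure D2:**
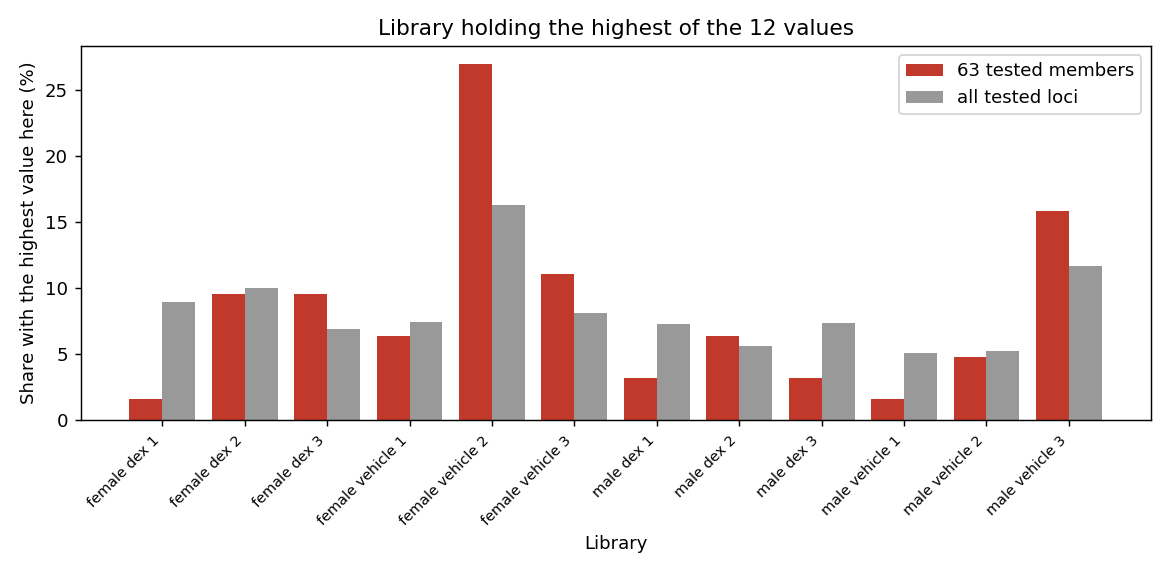
Share, in percent, of the 63 tested members (red) and of all tested loci (grey) whose highest of the 12 values lies in each library. The tallest red bars are female vehicle 2 (27.0%) and male vehicle 3 (15.9%), and both stand above their grey bars.

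The averaged comparison asked whether dexamethasone changed these genes within 4 hours. Of 63 members, 13 had an unadjusted p under 0.05 in the lower direction, 20.6%, against 6.74% of all tested loci, and 1 in the higher direction, 1.59%, against 6.86%. Point estimates lay below 0 for 41 members, 65.1%, against 51.5% of all tested loci, and the median log2 difference was -0.07 for the members and -0.0067 for all tested loci. The count of 14 members at an unadjusted p under 0.05 moved with single libraries. It was 7 (11.1%, against 10.6% of all tested loci in the same fit) without female dexamethasone library 1, and 8 (12.7% against 10.3%) without female dexamethasone library 2. It was 8 (12.7% against 11.0%) without female vehicle library 3 and 9 (14.3% against 11.2%) without male vehicle library 2. It was 6 (9.52%) without male dexamethasone library 2, against 11.2% of all tested loci, and 6 (9.52%) without male vehicle library 3, against 10.6%. Without male dexamethasone library 1 the count was 10 (15.9% against 11.8%). It reached 11 without female vehicle library 2 (17.5% against 12.4%) or male dexamethasone library 3 (17.5% against 14.6%). It reached 13 without female vehicle library 1 (20.6% against 15.1%) or male vehicle library 1 (20.6% against 15%). The highest count with 1 library left out was 17 (27.0% against 16.6%), without female dexamethasone library 3. The split by direction was not recomputed. Without both male dexamethasone library 2 and male vehicle library 3, an alternative chosen after seeing the data, the count was 4 (6.35% against 9.04%).

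The differences were mostly small. The 95% interval lay within 0.5 of 0 on the log2 scale for 42 members, 66.7%, against 58.7% of all tested loci. A size of at least 0.5 was found for 3 members, Brd3, Hdac9 and Setd3, which is 4.76% against 10.8% of all tested loci. In all 6 same-numbered pairs dexamethasone was lower for Hdac9, Chd4, Kdm3b, Hdac5, Prmt1, Chd1, Tet3, Hdac1 and Chd8. Setd3 and Hdac2 were higher in all 6. The share of all tested loci with such pairs was not counted. The members summed to between 1585 and 1812 FPKM in dexamethasone libraries, against 1736 to 1965 FPKM in vehicle libraries, and these ranges overlapped.

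**Figure D3:**
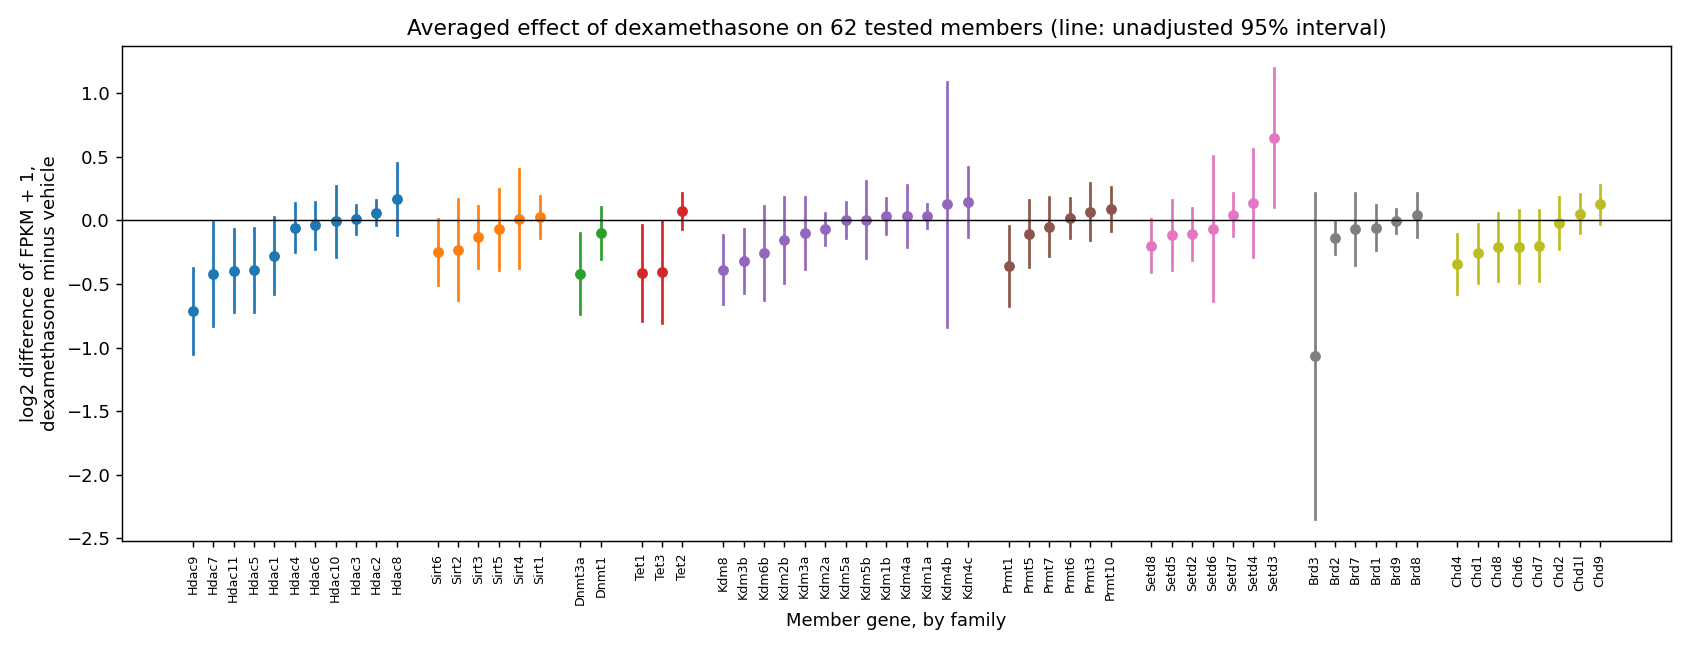
Averaged log2 difference of FPKM + 1, dexamethasone minus vehicle, for 62 of the 63 tested members by family; the dot is the estimate and the line its unadjusted 95% interval. Hdac9 lies at -0.71 with an interval of -1.05 to -0.38, and the widest intervals belong to Brd3 and Kdm4b.

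**Figure D4:**
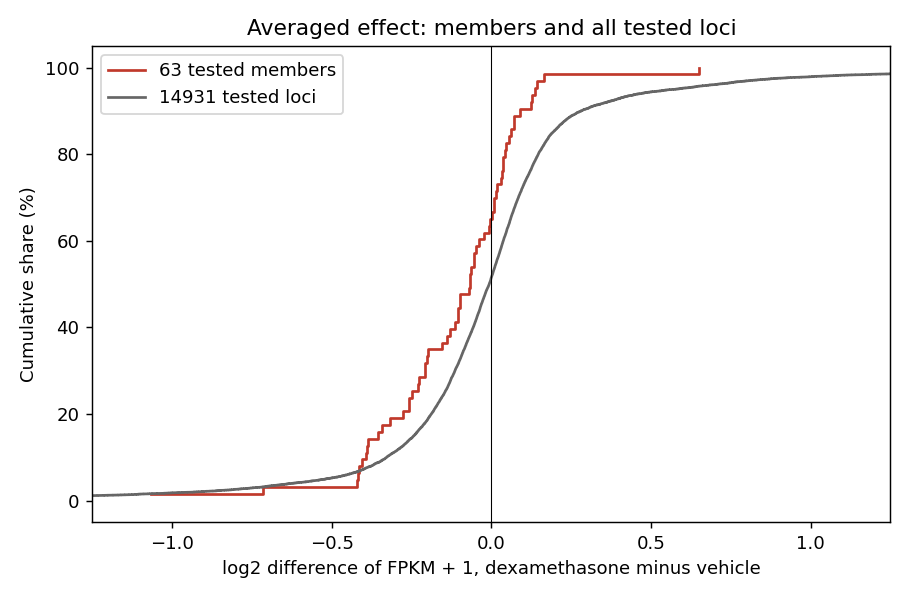
Cumulative share of loci, in percent, against the averaged log2 difference of FPKM + 1, dexamethasone minus vehicle, for 63 tested members (red) and 14931 tested loci (grey). At 0 the red line has reached 65.1% and the grey line 51.5%.

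Among the classes of deacetylases, class IIa had the lowest median estimate. These enzymes (Hdac4, Hdac5, Hdac7 and Hdac9) have weak catalytic activity of their own, bind MEF2 transcription factors and move between nucleus and cytoplasm. All 4 had estimates below 0, with a median of -0.41, and 3 had an unadjusted p under 0.05. Of all tested loci, 51.5% had estimates below 0 and 13.6% had an unadjusted p under 0.05. The class I enzymes (Hdac1, Hdac2, Hdac3 and Hdac8) had a median of 0.04, and 0 of these 4 had an unadjusted p under 0.05. Hdac11, alone in class IV, was close to class IIa at -0.39. In females it was lower than the class IIa median (-0.66 against -0.53), and in males it was nearer 0 (-0.13 against -0.28). The difference between the classes was not tested.

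Hdac9 (Ensembl ENSMUSG00000004698) stood at 3.66, 4.18 and 5.94 FPKM in female dexamethasone libraries, against 6.71, 9.02 and 9.92 FPKM in female vehicle libraries. In males it stood at 4.27, 6.54 and 5.09 FPKM with dexamethasone and at 7.11, 11.04 and 8.56 FPKM with vehicle. The highest dexamethasone library, at 6.54 FPKM, was just below the lowest vehicle library, at 6.71 FPKM, so the treatments did not overlap. It averaged 4.95 ± 1.12 FPKM with dexamethasone and 8.73 ± 1.65 FPKM with vehicle (SD, n = 6 each), and the log2 difference was -0.71 (SE 0.15, 95% interval -1.05 to -0.38, adjusted p = 0.0523). Without female dexamethasone library 3 the adjusted p was 0.0410, and without female vehicle library 1 it was 0.0480. Hdac9 was the only member whose dexamethasone libraries all lay below the vehicle libraries, 1.59% of members against 0.804% of all tested loci, and 0 members had all of them above, against 1.41% of all tested loci. Its adjusted p over 24 alternatives ran from 0.00392, with same-numbered libraries paired, to 0.212, on both sides of 0.05. The upper end came without female vehicle library 2 and male vehicle library 3, an alternative chosen after seeing the data. With single libraries left out the highest adjusted p was 0.139, without female dexamethasone library 1. Over the 24 alternatives the log2 difference lay between -0.81 and -0.64. By sex, the difference was -0.78 in females (adjusted p = 0.266) and -0.65 in males (adjusted p = 0.503).

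The table measures a stretch within the gene. Hdac9 runs from 34047580 to 34917095 on the minus strand of chromosome 12 in GENCODE M21 on GRCm38, and the deposited locus, from 34371493 to 34528889, covers 18.1% of that span. The upstream end of the locus, base 34528889, is the first transcribed base of one of 2 RefSeq starts for which a sequence was at hand, and the other, at 34917095, lies outside the locus. The span also holds 5 unnamed loci between 34047592 and 34052324 at 0.617 to 0.863 FPKM, near the 3′ end of the gene. The measured locus does not reach that end, so its values need not stand for transcripts of the whole gene. The 250 bases upstream of each start are printed because Hdac9 is the member with the lowest p and the locus meets 1 of the 2 starts. They were searched on both strands for AGAACA or its reverse complement TGTTCT, the 6-base core of the element bound by the glucocorticoid receptor, and for the full palindrome, AGAACA followed after 3 bases of any kind by TGTTCT, which contains the core in both orientations. Capitals mark the core, and the sequences run 5′ to 3′ along the minus strand of GRCm38.p6 (RefSeq).
Hdac9, start at the end of the measured locus, chr12:34528890-34529139: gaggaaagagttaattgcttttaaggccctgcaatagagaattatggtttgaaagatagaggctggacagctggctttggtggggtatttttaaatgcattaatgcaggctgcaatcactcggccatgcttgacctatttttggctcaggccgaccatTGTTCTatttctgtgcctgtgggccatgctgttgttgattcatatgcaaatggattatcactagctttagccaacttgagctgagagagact
Hdac9, start outside the measured locus, chr12:34917096-34917345: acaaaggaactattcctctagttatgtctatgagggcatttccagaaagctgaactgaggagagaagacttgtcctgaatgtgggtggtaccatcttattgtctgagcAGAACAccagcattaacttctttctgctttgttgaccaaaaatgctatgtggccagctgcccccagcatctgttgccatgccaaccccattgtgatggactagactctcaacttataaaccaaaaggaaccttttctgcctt

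Each Hdac9 window held 1 match to the core and 0 matches to the full palindrome. The core was found in 16.1% of 32851 windows of the same length before annotated starts, and in 12 of the 79 windows of 53 members, 15.2%, so the members were close to all windows in this count. The full palindrome occurred in 3 of all windows, 0.00913%, and in 0 member windows. The window at the measured start held 2 CG dinucleotides and the other 0, against a median of 18 over 70 windows of 48 tested members and 16 over 10716 windows of tested coding loci. Both Hdac9 windows were far below these medians. A match here describes the letters of these windows only.

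**Figure D5:**
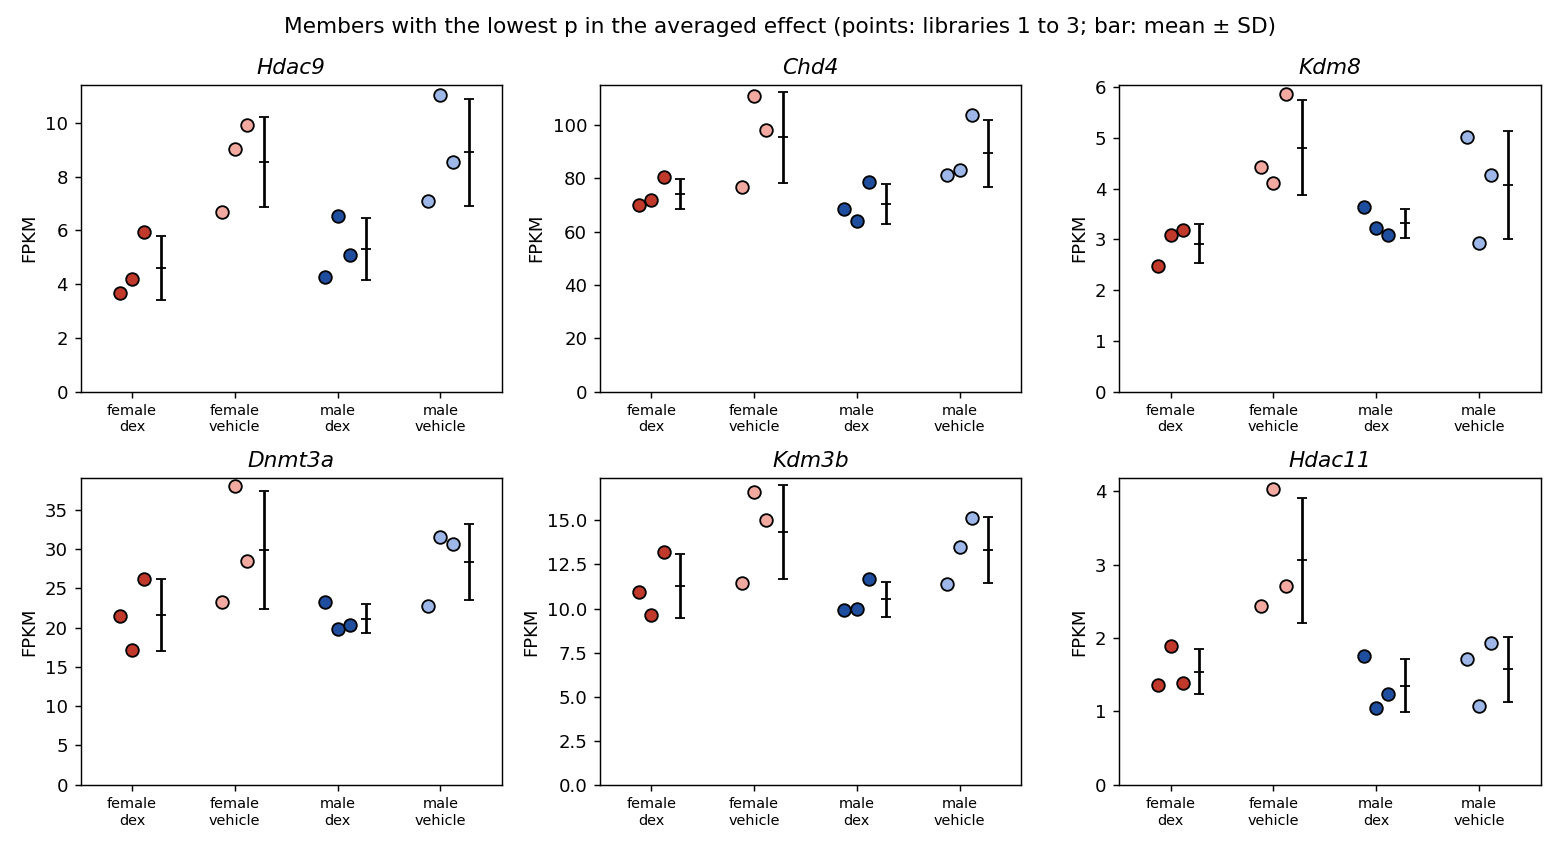
FPKM of the 6 members with the lowest unadjusted p in the averaged effect, by group; points are libraries 1 to 3 and the bar is the mean ± SD of the 3. The dexamethasone points of Hdac9, 3.66 to 6.54 FPKM, all lie below its vehicle points, 6.71 to 11.04 FPKM, while in the other 5 panels the treatments overlap.

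Hdac5, the highest class IIa member, ranged from 40.6 to 71.0 FPKM with dexamethasone (median 54.3), against 57.2 to 83.4 FPKM with vehicle (median 73.9). These ranges overlapped, and the log2 difference was -0.39 (SE 0.15, adjusted p = 0.289). Hdac7 ranged from 5.70 to 9.59 FPKM with dexamethasone and from 6.20 to 14.4 FPKM with vehicle, with a log2 difference of -0.42 (adjusted p = 0.354). Hdac4 differed least of the class, by -0.06, with a 95% interval of -0.25 to 0.14.

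Hdac11, the one class IV enzyme, known for removing fatty acyl groups, had the lowest mean of the deacetylases. It stood at 1.36, 1.89 and 1.38 FPKM in female dexamethasone libraries, against 2.44, 4.03 and 2.71 FPKM in female vehicle libraries. Male libraries stood at 1.75, 1.05 and 1.24 FPKM with dexamethasone and at 1.71, 1.08 and 1.93 FPKM with vehicle. The female groups did not overlap and the male groups did. The averaged log2 difference was -0.39 (SE 0.15, adjusted p = 0.280), the female minus male difference of effects was -0.53 with a 95% interval of -1.18 to 0.12, and its adjusted p was 1.00. The effect is therefore not shown to differ between the sexes.

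The class I enzymes had log2 differences between -0.28 (Hdac1) and 0.17 (Hdac8). Hdac2 ranged from 149.3 to 164.3 FPKM with dexamethasone (median 160.1), against 142.6 to 158.8 FPKM with vehicle (median 153.2). The ranges overlapped, and the log2 difference was 0.06 with a 95% interval of -0.04 to 0.16 (adjusted p = 0.569), but its sign turned below 0 under quantile scaling and under scaling to coding loci. Hdac8, an X-linked class I enzyme and the deacetylase of cohesin, ranged from 12.5 to 19.9 FPKM with dexamethasone and from 10.3 to 19.1 FPKM with vehicle, a difference of 0.17 (adjusted p = 0.596). Hdac3 differed by 0.01, with an interval of -0.10 to 0.12, and Hdac1 by -0.28, with an interval of -0.58 to 0.03.

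The 6 sirtuins, NAD-dependent deacylases, had 4 estimates below 0, a median of -0.10 and 0 members with an unadjusted p under 0.05. Sirt6, a nuclear enzyme of chromatin and DNA repair, ranged from 1.85 to 3.69 FPKM with dexamethasone (median 2.52), against 2.68 to 4.05 FPKM with vehicle (median 3.18). The ranges overlapped and the difference was -0.25 (SE 0.12, adjusted p = 0.380). Sirt1, the nuclear sirtuin of metabolic control, differed by 0.03 (95% interval -0.13 to 0.19), a sign that turned under 4 of 24 alternatives.

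Of the DNA methylation enzymes, Dnmt3a had the larger difference. It stood at 21.5, 17.1 and 26.2 FPKM in female dexamethasone libraries, against 23.2, 37.9 and 28.4 FPKM in female vehicle libraries. Male cultures stood at 23.3, 19.9 and 20.3 FPKM with dexamethasone and at 22.7, 31.5 and 30.6 FPKM with vehicle. Library 1 of each vehicle group lay within the range of the dexamethasone libraries, so the treatments overlapped. It averaged 21.4 ± 3.12 FPKM with dexamethasone and 29.1 ± 5.69 FPKM with vehicle (SD, n = 6 each), with a log2 difference of -0.42 (SE 0.14, 95% interval -0.74 to -0.10, adjusted p = 0.247). Dnmt1 ranged from 42.6 to 57.1 FPKM with dexamethasone and from 41.3 to 61.2 FPKM with vehicle, and differed by -0.10 with an interval of -0.30 to 0.11.

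The Tet enzymes, which oxidise methylcytosine on the way to its removal, did not all have estimates of 1 sign. Tet1 ranged from 3.54 to 6.01 FPKM with dexamethasone (median 4.99), against 4.93 to 9.63 FPKM with vehicle (median 6.22), a log2 difference of -0.41 (SE 0.17, adjusted p = 0.320). Tet3 ranged from 3.64 to 6.45 FPKM with dexamethasone (median 4.49), against 5.10 to 10.02 FPKM with vehicle (median 6.40), a log2 difference of -0.41 (SE 0.18, adjusted p = 0.358). Tet2, which lacks the CXXC DNA-binding domain of the others, differed by 0.07 with an interval of -0.07 to 0.21 (adjusted p = 0.654), and its sign turned under scaling to coding loci. Ranges overlapped between the treatments for all 3 genes, and the differences between them were not tested.

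The 13 tested demethylases had 6 estimates below 0 and 7 above, with a median of 0.0026. Kdm8, a JmjC protein also known as JMJD5, had the lowest p. It stood at 2.48, 3.08 and 3.18 FPKM in female dexamethasone libraries, against 4.42, 4.11 and 5.87 FPKM in female vehicle libraries, with no overlap. Male cultures stood at 3.64, 3.23 and 3.09 FPKM with dexamethasone and at 5.01, 2.92 and 4.26 FPKM with vehicle, which overlapped through male vehicle library 2. The averaged log2 difference was -0.39 (SE 0.12, adjusted p = 0.213).

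Kdm3b, a JmjC enzyme that removes repressive methyl groups from histone H3, ranged from 9.64 to 13.2 FPKM with dexamethasone (median 10.4), against 11.4 to 16.6 FPKM with vehicle (median 14.2). The treatments overlapped, with library 1 of both vehicle groups at 11.4 FPKM, below the highest dexamethasone libraries. The log2 difference was -0.32 (SE 0.11, adjusted p = 0.264). At the other end Kdm4c, an eraser of histone H3 methylation, ranged from 18.1 to 28.3 FPKM with dexamethasone and from 17.6 to 25.0 FPKM with vehicle, a difference of 0.14 (adjusted p = 0.648). Kdm1a, the steadiest member, differed by 0.04 with an interval of -0.06 to 0.13, and its sign turned under quantile scaling and under scaling to coding loci.

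Among the arginine methyltransferases 3 of 6 estimates lay below 0, with a median of -0.01. Prmt1 ranged from 75.8 to 129.8 FPKM with dexamethasone (median 94.2), against 105.8 to 143.5 FPKM with vehicle (median 126.5). The third library of each dexamethasone group, at 129.8 and 116.8 FPKM, lay within the vehicle range, and the log2 difference was -0.36 (SE 0.14, adjusted p = 0.310). Prmt10, the member with the largest positive estimate in this family, differed by 0.09 (adjusted p = 0.654).

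The SET domain family held the one member with an unadjusted p under 0.05 in the higher direction. Setd3, an enzyme best known for methylating a histidine of actin, stood at 86.6, 41.3 and 32.6 FPKM in female dexamethasone libraries, against 33.3, 27.4 and 28.8 FPKM in female vehicle libraries. In males it stood at 36.8, 60.1 and 63.9 FPKM with dexamethasone and at 34.5, 44.1 and 26.0 FPKM with vehicle. The spread was wide, with female dexamethasone library 1 the highest, and the treatments overlapped in both sexes. It averaged 53.5 ± 20.6 FPKM with dexamethasone and 32.3 ± 6.66 FPKM with vehicle (SD, n = 6 each), and the log2 difference was 0.65 (SE 0.24, 95% interval 0.10 to 1.20, adjusted p = 0.290). Without female dexamethasone library 1 the difference was 0.45 (adjusted p = 0.432).

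Setd8, which adds a single methyl group to histone H4, ranged from 62.4 to 85.4 FPKM with dexamethasone (median 66.1), against 62.0 to 92.3 FPKM with vehicle (median 80.0). The ranges overlapped and the difference was -0.20 (SE 0.09, adjusted p = 0.381). The other tested Setd genes had intervals that included 0.

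Of the 7 bromodomain readers, 6 had estimates below 0, with a median of -0.07 over the family. Brd2, a BET reader of acetylated histones, ranged from 79.1 to 88.4 FPKM with dexamethasone (median 86.9), against 85.3 to 101.5 FPKM with vehicle (median 97.3). Vehicle libraries 2 and 3 of the female group, at 85.5 and 85.3 FPKM, lay within the dexamethasone range, and the difference was -0.14 (SE 0.06, adjusted p = 0.318). Brd8, a subunit of the TIP60 acetyltransferase complex, differed by 0.04 with an interval of -0.13 to 0.21, and its sign turned under scaling to coding loci and without female vehicle library 1.

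The chromodomain helicases had 6 of 8 estimates below 0 and a median of -0.20. Chd4, the main ATPase of the NuRD deacetylase complex, stood at 70.1, 71.8 and 80.6 FPKM in female dexamethasone libraries, against 76.9, 110.9 and 98.3 FPKM in female vehicle libraries. Male libraries had 68.6, 63.8 and 78.7 FPKM with dexamethasone and 81.4, 83.1 and 104.0 FPKM with vehicle. The male groups did not overlap, and the female groups overlapped through female vehicle library 1. It averaged 72.3 ± 6.33 FPKM with dexamethasone and 92.4 ± 13.9 FPKM with vehicle (SD, n = 6 each), and the log2 difference was -0.34 (SE 0.10, 95% interval -0.58 to -0.11, adjusted p = 0.194). The values of Chd4 include the joined microRNA locus mmu-mir-7045.

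Chd1, a remodeller of active genes, ranged from 15.7 to 21.8 FPKM with dexamethasone and from 17.6 to 24.9 FPKM with vehicle, with a difference of -0.26 (adjusted p = 0.316). The developmental remodellers Chd6, Chd7 and Chd8 had differences of -0.21, -0.20 and -0.21, each with an interval that included 0. Chd9 ranged from 4.08 to 5.09 FPKM with dexamethasone and from 3.43 to 4.50 FPKM with vehicle, a difference of 0.13 (SE 0.07, adjusted p = 0.449), which was the largest positive estimate of the family.

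Taken by sex, 0 members passed an adjusted p of 0.05 in the main test. Under 1 of 25 alternatives, which pairs same-numbered libraries, Hdac9 passed in females (adjusted p = 0.0196) and in males (0.0319). In females 72 loci passed, 0.482%, and 6 members had an unadjusted p under 0.05, 9.52% against 8.02% of all tested loci. Of these, 5 were in the lower direction (Hdac9, Kdm8, Hdac11, Hdac5 and Chd4), 7.94% against 3.44% of all tested loci, and 1, Prmt10, in the higher, 1.59% against 4.59%. In males 47 loci passed, 0.315%, and 2 members, Hdac9 and Chd4, had an unadjusted p under 0.05, 3.17% against 6.38% of all tested loci. Both were lower, a direction that 3.03% of all tested loci took.

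The difference between the sexes in the response was tested directly. Of all tested loci 5 passed an adjusted p of 0.05, 0.0335%, and 0 members did, with 1 member, Prmt10, at an unadjusted p under 0.05, 1.59% against 1.47%. Prmt10 stood at 8.52, 9.87 and 8.26 FPKM in female dexamethasone libraries, against 6.93, 7.66 and 6.99 FPKM in female vehicle libraries, with no overlap. In males it stood at 7.31, 6.89 and 6.58 FPKM with dexamethasone and at 8.80, 6.46 and 7.21 FPKM with vehicle, which overlapped. The female effect minus the male effect was 0.36 on the log2 scale, with a 95% interval of 0.01 to 0.71 and an adjusted p of 1.00. For Hdac9 the same difference was -0.13 with an interval of -0.80 to 0.55, and for Chd4 -0.01 with an interval of -0.47 to 0.46.

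Female and male cultures were also compared under vehicle alone. Of all tested loci 11 passed an adjusted p of 0.05, 0.0737%, and 0 members did, while 2 members had an unadjusted p under 0.05, 3.17% against 4.88% of all tested loci. Both were higher in females, as were 3.03% of all tested loci. These were named after their values were seen. Brd9, a subunit of the non-canonical BAF remodeller, stood at 18.8, 18.4 and 18.2 FPKM in female vehicle libraries, against 16.5, 15.7 and 15.1 FPKM in male vehicle libraries, a log2 difference of 0.22 (SE 0.06, adjusted p = 0.892). The sexes did not overlap for Brd9. Hdac11 stood at 2.44, 4.03 and 2.71 FPKM in female vehicle libraries, against 1.71, 1.08 and 1.93 FPKM in male vehicle libraries, a difference of 0.65 (SE 0.21, adjusted p = 0.892), again with no overlap. The share of all tested loci whose groups of 3 libraries do not overlap was not counted, here or for the single-sex comparisons above. The X-linked Hdac6, the tubulin deacetylase, and Hdac8 differed by 0.20 and 0.30, with intervals of -0.06 to 0.46 and -0.10 to 0.70.

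Chromatin genes outside the 9 families were taken from 7 lists of acetyltransferases, other methyltransferases, Polycomb subunits, DNA methylation partners, deacetylase complex partners, SWI/SNF subunits and other demethylases. Of 143 tested genes in the averaged comparison, 1 passed an adjusted p of 0.05, 0.699% against 1.53% of all tested loci, and it was higher. At an unadjusted p under 0.05, 5 were higher, 3.50% against 6.86% of all tested loci, and 15 lower, 10.5% against 6.74%, with a median of -0.08. The one called was Sap30, a subunit of the Sin3 complex that carries Hdac1 and Hdac2. It averaged 52.6 ± 6.99 FPKM with dexamethasone and 23.7 ± 3.11 FPKM with vehicle (SD, n = 6 each) and was higher with dexamethasone by a log2 difference of 1.12, with an SE of 0.11 and an adjusted p of 0.000615. Sap30 passed under all 24 alternatives, with differences from 1.03 to 1.18.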

How the data were processed

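Total RNA was taken with Trizol and made into libraries with a stranded total RNA kit, per the labels' protocols. The authors deposited FPKM values for 12 libraries. TopHat2 2.0.9 and Cufflinks 2.2.1 with Cuffdiff 2.2.1 were used on GRCm38, per the submitters' processing notes. Which annotation, strand option and library normalization were used is not given there, so values of overlapping or antisense genes are uncertain. Read depth is unknown. A locus listed with several names has one value, which holds for 4 members: Hdac5, Brd3, Chd4 and Chd2. Prmt2, Sirt7 and Setd1a, in joined loci whose name starts with another gene, fall outside the naming rule.

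Loci averaging 1 FPKM or more were tested with limma 3.58.1 in R 4.3.3 on log2(FPKM + 1), a scale that understates changes of low genes, with one mean per group over all 12 libraries and an intensity trend in the variance. All tests are two-sided, with Benjamini-Hochberg adjustment over 14931 loci, and intervals are unadjusted. The fit was tested on simulated data. A rule named the highest of each family, the largest rise and fall of each family and the 6 lowest p. It also named members with the same sign in 6 same-numbered library pairs and a size of at least 0.3. Other members with values, such as Hdac1, Hdac3, Hdac4, Hdac6, Hdac7, Chd1, Chd6, Chd7, Chd8 and Brd9, were added outside this rule. The values of 1 tested member are not reported here. No pair of libraries held identical values. The members and lists were chosen with earlier results of these data known.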

Additional observations from a re-analysis of the deposited data

How the results depend on the processing

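Averaged results were recomputed under 24 alternatives of pseudocount, filter, scaling, variance model, block and left-out library, or 23 for Chd9, Hdac11, Kdm8 and Sirt6, which lie under the filter of 5 FPKM. Among the recomputed values of named genes, 921 kept their direction and side of the threshold, 7 newly passed it and 12 turned direction. The count of members called in the averaged effect was 1 (Hdac9) with scaling to coding loci (adjusted p = 0.0280), with array weights (0.0334) and with the replicate block (0.00392), and ranged from 0 to 1 when single libraries were left out, with Hdac9 called without female dexamethasone library 3 (0.0410) and without female vehicle library 1 (0.0480); the cause was not tested. Correlations between libraries were taken over the tested loci after the mean of each group was subtracted. Same-numbered dexamethasone and vehicle libraries of a sex then correlated at 0.0819 to 0.167, over 0.1 in 4 of 6 pairs. Each library was compared only with the 3 libraries of its sex under the other treatment. All 12 libraries correlated best with the one of their own number. The main fit did not take the numbers to pair the cultures. The labels do not settle this, while all 12 best correlations went with the number. If the numbers do pair the cultures, the replicate block is the fit that uses it. With the replicate block the count was also 1, Hdac9, in females (adjusted p = 0.0196) and in males (0.0319), and over all loci it was 804 against 229 in the averaged effect, 187 against 72 in females and 148 against 47 in males. With single libraries left out, the count over all loci ranged from 146 (without female dexamethasone library 1) to 215 in the averaged effect, from 31 to 74 in females and from 28 to 49 in males. The counts of members called for the sex difference in response and for females against males under vehicle were 0 under each alternative run.

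At an unadjusted p under 0.05 the averaged effect held 18 members with scaling to coding loci (28.6%, against 18.7% of all loci in that fit), 17 with array weights (27.0% against 18.6%) and 17 with the replicate block (27.0% against 24.8%). Point estimates near 0 turned sign. Hdac2 turned to -0.021 with quantile scaling and -0.021 with coding loci, Kdm1a to -0.019 and -0.044, and Tet2 to -0.0011 with coding loci. Brd8 turned to -0.039 with coding loci, and with single libraries left out it ranged from -0.0034 (without female vehicle library 1) to 0.084. Sirt1 turned to -0.046 with coding loci and -0.018 with array weights, and with libraries left out it ranged from -0.011 (without female dexamethasone library 3) to 0.073, at -0.00027 without male dexamethasone library 1. Hdac11 in males ranged from -0.27 to 0.066 with libraries left out, the upper end without male dexamethasone library 2 and male vehicle library 3. Scaling to coding loci moved the median of all loci to -0.08. FPKM values carry no read counts, so how depth limits the low members, such as Hdac11 and Kdm6b, is unknown.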
